A study of Mus musculus with 40 samples.

Results

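The unfolded protein response genes described here are 32 genes that help secreted and membrane proteins fold in the endoplasmic reticulum (ER), or that sense and answer a load of unfolded protein there. They were chosen by gene symbol from 20593 genes in the deposited table, with no measured value in the rule, and all 32 were found. By role they fall into 15 ER chaperones and foldases, 7 genes of ER-associated degradation, 4 genes for the stress sensors and the transcription factor Xbp1, and 6 genes of the arm that runs through the transcription factor ATF4. The branch of 4 is called the sensor genes below, although Xbp1 is not itself a sensor. The libraries were made from polyadenylated RNA of liver of C57BL/6 mouse fetuses at gestational day 18.5, 1 fetus per library. The dams had been fed their diet for 13 weeks before breeding and stayed on it through pregnancy.

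Each sex had 4 groups, named by maternal diet, with 5 libraries each. CD was the control diet, with 10% of energy as fat and 2 mg folic acid per kg. CDF had the same fat and 10 mg folic acid per kg. WD was the western diet, with 45% of energy as fat and 2 mg folic acid per kg, and WDF had that fat with 10 mg folic acid per kg. All groups thus received folic acid, and the comparisons are of a high against an ordinary dose and of high against low fat. The higher-fat diet stands in the series as a model of gestational diabetes. Dams and litters are not named in the labels. A p-value here therefore rests on the spread from fetus to fetus, and some fetuses may be littermates.

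Albumin and 7 other hepatocyte genes summed to between 1897784 and 3016634 normalized reads in 38 libraries, as the liver label implies. The sum was 14341 in replicate 4 of the CD females and 10858 in replicate 5 of the CDF females, and there 6 lung epithelium genes summed to 138273 and 89381, against a median of 36.2 in the 38. These 2 libraries were left out of the main values, which leaves 4 libraries in each of those groups. In them 17 and 22 of the 32 genes lay below the lowest of the other 38 libraries and none lay above the highest. The share of all genes outside that range was not counted, so these counts cannot be read as particular to the 32. Among the 38, the largest lung sums were 37603 in the CD females and 28423 in the CDF females. The libraries with these sums were kept in the main values. The sum of a library's values ran from 15 to 27.8, in units of 1000000 reads, over the 38. Messages of blood-forming cells, which fetal liver holds, varied more widely: 7 erythroid genes summed to between 305514 and 2558791. In such bulk samples, fewer cells of a type and less RNA per cell cannot be told apart.

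When unfolded protein builds up in the ER lumen, 3 sensors in the ER membrane respond. IRE1 (gene Ern1) splices the Xbp1 message so that it encodes an active transcription factor, ATF6 is cut to release another, and PERK (Eif2ak3) phosphorylates eIF2α, which slows translation in general but favours that of ATF4. XBP1 and ATF6 switch on chaperones and degradation genes, while ATF4 switches on amino acid synthesis genes, the factor CHOP (Ddit3) and feedback regulators. The hepatocyte is a professional secretory cell and carries a large ER, and gene-level values of Xbp1 do not separate its spliced from its unspliced form.

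ATF6 with NF-Y, and XBP1, are known to act through the ER stress response element (ERSE) of chaperone promoters, and ATF4 through a C/EBP-ATF response element (CARE). Promoters of 28 of the 32 genes were matched by symbol in RefSeq (build GRCm38.p6, 250 bases before to 50 after the start site). The ERSE letters, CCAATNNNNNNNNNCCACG on either strand, were present in 9 of these 28 genes, or 32.1%. They were present in 39 of the 32851 promoters searched, or 0.119%. The first share counts genes, which had 29 promoters, and the second counts promoters. The element is known from chaperone promoters and the 32 were chosen by role, so this excess is not independent support. The 9 genes were Hspa5, Hsp90b1 (which had 2 matches), Calr, Canx, Pdia6, Dnajc3, Creld2, Syvn1 and Derl3. The stretches below show the spacing of the element, with its fixed letters in capitals, for 6 of the chaperones whose values are described further on. Those of Hspa5 (chr2:34772013-34772055, plus strand), Canx (chr11:50325788-50325830, minus strand), Pdia6 (chr12:17266479-17266521, plus strand) and Dnajc3 (chr14:118937815-118937857, plus strand) read in the forward direction. Those of Calr (chr8:84847063-84847105, minus strand) and Creld2 (chr15:88819508-88819550, plus strand) hold it reversed.
Hspa5: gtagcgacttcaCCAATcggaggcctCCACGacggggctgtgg
Canx: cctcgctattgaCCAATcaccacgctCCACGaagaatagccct
Pdia6: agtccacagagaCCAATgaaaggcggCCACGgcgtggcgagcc
Dnajc3: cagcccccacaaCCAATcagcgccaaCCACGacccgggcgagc
Calr: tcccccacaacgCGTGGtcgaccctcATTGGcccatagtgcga
Creld2: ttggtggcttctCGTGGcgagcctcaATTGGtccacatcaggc

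A shorter relative of the element, ERSE-II (ATTGGNCCACG), was present in Herpud1 and Dnajb11, 7.14% of the 28 genes against 0.0365% of all promoters searched. The CARE letters TGATGNAA were present in Asns, Chac1, Trib3 and Herpud1, 14.3% of the 28 against 3.97% of all. The element known as UPRE, searched as TGACGTGG, was present in 0 of the 28 against 0.676% of all. The stretches of Herpud1 (chr8:94386365-94386399, plus strand), with ERSE-II, and of Asns (chr6:7693213-7693244, minus strand) and Chac1 (chr2:119351037-119351068, plus strand), with CARE, are printed because Herpud1 and Chac1 had differences opposite in sign to those of most chaperones in 2 male comparisons, and Asns had the smallest p of the 32 in another. In Chac1 the element is reversed. A match is a run of letters and says nothing of whether a factor was bound in these livers.
Herpud1: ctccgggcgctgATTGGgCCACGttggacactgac
Asns: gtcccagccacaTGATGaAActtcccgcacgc
Chac1: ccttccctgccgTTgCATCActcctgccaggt

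Levels are given as normalized read counts, which are reads divided by a factor for library depth, and levels of different genes are compared per kb of exon. Chaperones led the 32. The median per kb over the 38 libraries was highest for P4hb, the disulfide isomerase subunit of prolyl hydroxylase, at 7421, followed by the lectin chaperone Calr at 5310, the ER HSP90 Hsp90b1 at 3775, the ER HSP70 Hspa5 (BiP) at 3591 and the glycoprotein isomerase Pdia3 at 3026. The sensors were far lower, at 62.9 for Atf6, 44.7 for Eif2ak3 and 37.4 for Ern1, while Xbp1 stood at 792. Atf4 reached 1414 and its target Asns, asparagine synthetase, 939. Derl3, a degradation channel gene of specialised secretory cells, was the lowest at 3.1, with a value of 0 in 1 library, and the glutathione-degrading Chac1 was next at 5.69.

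The genes also differed in how much fetuses of a group varied. The within-group SD on the log2 scale had a median of 0.32 over the 32 genes and 0.38 over all genes tested. Derl1, a channel subunit of ER-associated degradation, was among the steadiest of all genes, with an SD of 0.09 that only 0.078% of genes undercut. Derl3 (0.99), the pseudokinase Trib3 (0.89), Chac1 (0.76) and the eIF2α phosphatase subunit Ppp1r15a (0.75) spread most. The ratio of the highest to the lowest group mean lay between 1.19 and 1.75 for chaperones, and reached 2.6 for Trib3, from 321 in CD males to 124 in WD females.

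All 32 genes passed the filter on low values, and 15 comparisons were fitted with limma on log2(value + 1), with Benjamini-Hochberg adjustment over the 15377 genes tested. None of the 32 passed an adjusted p of 0.05 in any of the 15, at the settings used throughout. Over all genes, 0% passed in 13 of the comparisons, 0.0455% in the effect of fat over both sexes and doses, and 0.0585% in the difference between sexes. What follows therefore gives sizes and unadjusted p beside the share of all genes at the same unadjusted threshold of 0.05, and no gene is said to have changed. Counts of genes with a higher or lower log2 mean go by the sign of the log2 difference, a difference of means of log2 values. Chaperones varied together between fetuses of a group (median Pearson's r 0.49), as did the sensor genes (median 0.69). Such counts are therefore not independent observations, and 1 library can move several genes at once.

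In males of ordinary folic acid, log2 means of most ER chaperones were above control on the western diet. Against CD males, 14 of 15 chaperones had higher log2 means in WD males, with a median log2 difference of 0.23, against -0.02 over all genes tested. Hspa5, the master chaperone that also holds the sensors inactive, measured 15420, 13748, 17726, 7709 and 12591 in the 5 CD males and 18370, 15891, 20747, 18269 and 15094 in the 5 WD males. The groups overlapped, and the lowest value by far was that of CD replicate 4. The log2 difference was 0.44 (SE 0.21, unadjusted p 0.0398, limma adjusted p 0.737), and it was 0.25 without CD replicate 4. Hyou1, the nucleotide exchange factor for BiP, and the isomerase Pdia4 were higher by 0.52 (SE 0.24) and 0.40 (SE 0.18), and with library weights Hyou1 passed (0.74, limma adjusted p 0.039).

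Members of the other branches had the smallest p in this comparison. Xbp1 was higher by 0.36 (SE 0.14, unadjusted p 0.0163, limma adjusted p 0.675). Its values were 2407, 2288, 2792, 1499 and 2353 in CD males and 2919, 2768, 2825, 2758 and 3039 in WD males. Only CD replicate 3, at 2792, reached into the narrow WD range, and the difference was 0.22 without CD replicate 4. Herpud1, which gathers the degradation machinery at the ER membrane, went the other way (log2 difference -0.37, SE 0.15, unadjusted p 0.0156, limma adjusted p 0.673), from 2922, 3574, 4156, 5264 and 3790 to 2851, 2569, 2958, 3296 and 3312. The highest of these Herpud1 values, 5264, was again that of CD replicate 4. All 4 sensor genes had log2 means above control and 5 of 6 ATF4 arm genes below it, Chac1 by the most (log2 difference -1.0, SE 0.47). These counts by branch were not repeated without CD replicate 4. In all, 6 of the 32 genes were below an unadjusted p of 0.05, 4 higher and 2 lower, against 6.65% of all genes. None of the 32 had ranges without overlap, against 1.5% of all genes. Genes of other cell types had lower log2 means in WD males in the same comparison: 6 of 6 lung epithelium (median -1.65), 5 of 5 mesothelium (-0.82) and 6 of 6 B and plasma cell genes (-0.44), whose part in the values was not tested.

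At the high dose of folic acid the median of the chaperones in the fat comparison of males was below 0. Against CDF males, 13 of 15 chaperones had lower log2 means in WDF males (median log2 difference -0.22, all genes 0.01). Dnajb9, a BiP co-chaperone that also restrains IRE1, measured 879, 1381, 678, 1576 and 910 in CDF males and 722, 607, 557, 890 and 474 in WDF males. The ranges overlapped through CDF replicates 1 and 3, and the 2 highest values, of CDF replicates 2 and 4, set the mean of that group. The log2 difference was -0.70 (SE 0.24, unadjusted p 0.00523, limma adjusted p 0.55). Eif2ak3 (PERK) was the only gene of the 32 whose ranges did not overlap here, from 309, 344, 247, 509 and 341 down to 223, 207, 239, 238 and 244 (log2 difference -0.56, SE 0.20). CDF replicate 3, at 247, was close to the highest WDF library, at 244. Ranges without overlap were found for 2.08% of all genes, and 4 of the 32, all lower, had an unadjusted p below 0.05 against 6.9% of all genes. Ddit3 had the smallest p among positive values, at 0.37 (unadjusted p 0.135; 0.24 with the erythroid covariate). Beside these values, 11 of 12 immediate early genes (median 0.40, 4 below an unadjusted p of 0.05) and 6 of 6 megakaryocyte genes (median 0.52, 3 below it) had higher log2 means in WDF males. Their part in the chaperone values was not tested.

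Read by dose, the same 4 male groups gave a mirrored picture, and the comparisons share these libraries. On the control diet, 14 of 15 chaperones and all 4 sensor genes had higher log2 means at the high dose (medians 0.16 and 0.27). All 6 ATF4 arm genes had lower log2 means (median -0.42, all genes -0.01). In the CD group, replicate 4 was the lowest male for Hspa5 (7709), Dnajb9 (415) and Atf6 (326). It was the highest for Herpud1 (5264) and Ppp1r15a (11256). The counts by branch were not repeated without that library. Dnajb9 was higher by 0.62 (SE 0.24, unadjusted p 0.0123, limma adjusted p 0.908) and Herpud1 lower (log2 difference -0.31, SE 0.15). Of the 32, 3 were below an unadjusted p of 0.05 against 3.49% of all genes, and none had separate ranges against 0.722%. On the western diet, 14 of 15 chaperones had lower log2 means at the high dose (median -0.16, all genes 0.01), with Hspa5 at 14513, 11929, 11952, 15242 and 9253 in WDF males. Only the highest WDF male lay above the lowest of the 5 WD males. The log2 difference of Hspa5 was -0.50 (SE 0.21, unadjusted p 0.0195, limma adjusted p 0.511).

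Asns had the smallest p of the 32 in WDF against WD males. Its values were 3354, 3631, 2972, 2327 and 2284 in WD males and 2568, 2571, 2109, 2036 and 1666 in WDF males, with overlap through WD replicates 4 and 5 (log2 difference -0.40, SE 0.15, unadjusted p 0.0131, limma adjusted p 0.487). Xbp1 was lower as well (log2 difference -0.30, SE 0.14), and Ddit3 had the smallest p among genes with a higher mean (0.24, unadjusted p 0.335). Asns, Xbp1 and Hspa5 were the 3 genes of the 32 below an unadjusted p of 0.05, against 8.81% of all genes, and 0 of the 32 had separate ranges against 2.52%. With library quality weights, an alternative that moved the genes called from 0 to 621, 3 of the 32 passed, among them Hspa5 (-0.58, limma adjusted p 0.0301) and Asns (-0.47, limma adjusted p 0.0364). In the authors' deposited table of the same comparison the adjusted p of Hspa5 was 0.0858, with a log2 fold change of -0.3775 and a p of 0.00203. Fold changes in the authors' tables lay close to 0, as given further on, so their size is not comparable with the limma differences. That table's p was 0.0141 for Dnajb9, 0.0195 for Hyou1, 0.0226 for Asns and 0.037 for Xbp1, so 5 of the 32 were below 0.05 against 11.3% of its genes.

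**Figure D1:**
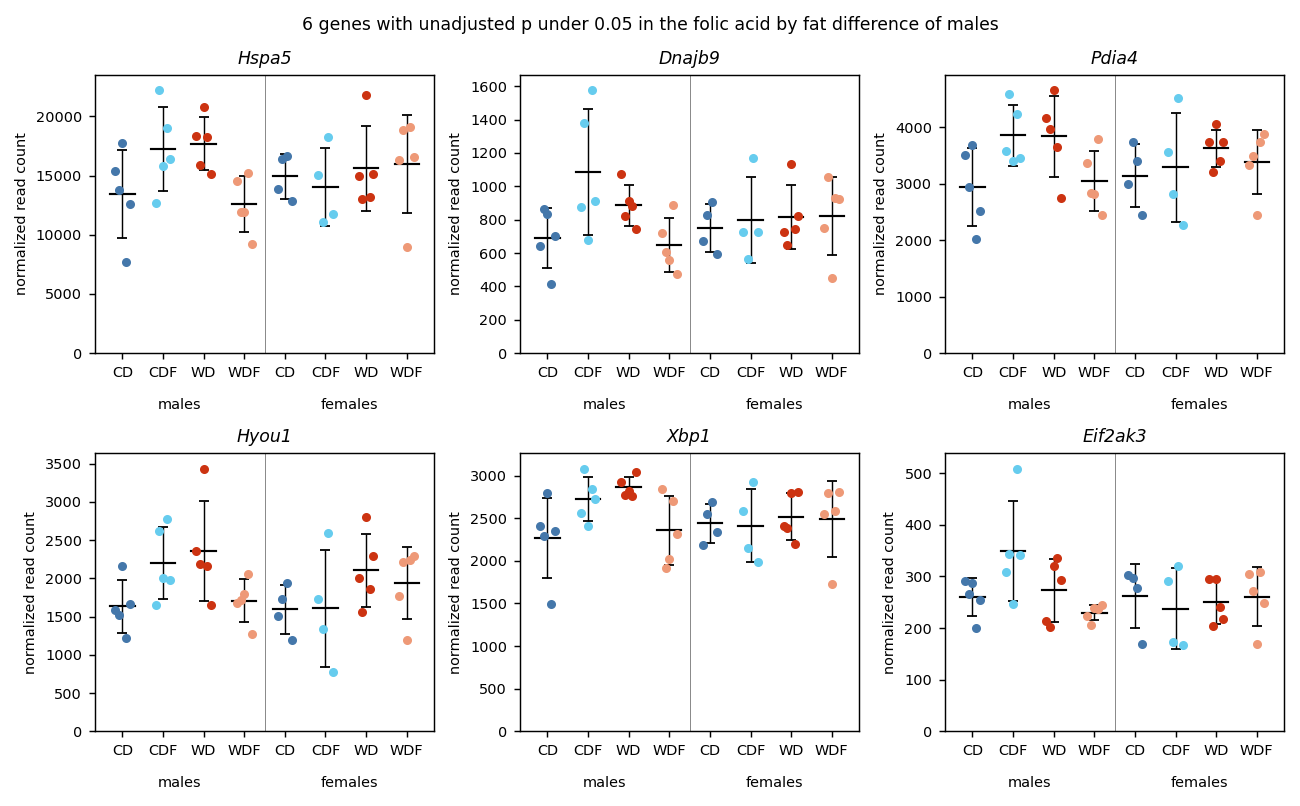
Normalized read counts (y axis, from 0) of Hspa5, Dnajb9, Pdia4, Hyou1, Xbp1 and Eif2ak3 in the 4 diet groups of males and of females (x axis); each point is 1 library, and bars give the group mean and SD. These genes were picked for an unadjusted limma p below 0.05 in the difference of fat effects in males, so their pattern there is not independent. In males the CDF and WD means stand above CD and WDF, with Hspa5 at 17229 and 17674 against 13439 and 12578. In females the 4 means of Hspa5 lie between 14051 and 15964, and the sexes were not shown to differ.

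The difference between the 2 fat effects in males, that at high dose less that at ordinary dose, was negative for all 15 chaperones and all 4 sensor genes. The medians were -0.38 and -0.58, against 0.02 over all genes. Dnajb9 had the smallest p (log2 difference -1.10, 95% interval -1.77 to -0.42, SE 0.33, unadjusted p 0.00233, limma adjusted p 0.286). It was followed by Hspa5 (-0.89, SE 0.29, unadjusted p 0.00423, adjusted p 0.332), Pdia4 (-0.74, SE 0.25), Xbp1 (-0.58, SE 0.20) and Hyou1 (-0.87, SE 0.33). The ATF4 arm did not share the sign: 5 of its 6 genes were positive, with a median of 0.64, and Asns was the exception at -0.39. Herpud1 had the smallest p among the positive genes, at 0.42 (unadjusted p 0.0501). In all, 8 of the 32 were below an unadjusted p of 0.05, all negative, against 12.3% of all genes. With library weights 3 of the 32 passed here, Hspa5 (limma adjusted p 0.0312), Pdia4 (0.0343) and Hyou1 (0.0251), among 397 genes called. The value of Hspa5 without any 1 library stayed between -1.0 and -0.70. The difference with erythroid genes as a covariate was -0.90 for Hspa5 and -1.11 for Dnajb9.

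Genes of the same ER pathway outside the 32 were listed by role. In the difference of fat effects in males, 8 of 19 genes for translocation and signal peptide removal were below an unadjusted p of 0.05, all lower, against the 12.3% of all genes given above, Spcs3 of the signal peptidase with the smallest p (0.000455, limma adjusted p 0.286). Among 20 other foldases and oxidases 5 were lower and 1 higher at that threshold, led by the HSP70 relative Hspa13 (unadjusted p 0.00145). Of 15 genes of N-glycosylation and glucose trimming 3 were lower, of 16 other degradation genes 2 were lower, and of 19 genes of ER to Golgi transport 3 were lower. Of 16 other sensors and regulators 1 was higher, and of 33 other ATF4 targets 6 were higher and 2 lower. No gene of these lists passed the adjusted threshold. Beside these, 11 of 12 immediate early genes, which answer handling and stimulation within minutes, had positive values in the same difference (median 0.45), 6 of 6 neutrophil genes did (0.52), and 6 of 6 lung epithelium genes did (3.67). The sum of lung genes reached 5373 in a CD male and 8008 in a WDF male, against medians of 60.3 and 50 in those groups. The part of these in the chaperone values was not tested.

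In females at the ordinary dose, 14 of 15 chaperones had higher log2 means on the western diet (median 0.36, all genes -0.02). Creld2, an ER isomerase of secreted proteins, measured 388, 355, 557 and 424 in CD females and 580, 646, 746, 728 and 1077 in WD females. The ranges did not overlap, with CD replicate 3 close to WD replicate 1. The log2 difference was 0.80 (95% interval 0.26 to 1.34, SE 0.27, unadjusted p 0.00502, limma adjusted p 0.662), the smallest p of the 32.

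Hsp90b1, the ER HSP90, measured 12907, 13836, 13015 and 10906 in CD females and 17395, 18173, 15372, 17741 and 20632 in WD females (log2 difference 0.50, SE 0.19). Calr measured 13024, 13516, 14563 and 12093 in CD females and 15524, 19167, 15443, 17932 and 18009 in WD females (log2 difference 0.37, SE 0.16). In both genes every WD female lay above every CD female. This held for 5 of the 32 genes, with P4hb and the isomerase Pdia6, all chaperones and all higher, against 2.56% of all genes. The co-chaperone Dnajb11 (0.36) and the secreted ER factor Manf (0.51) were also below an unadjusted p of 0.05, which made 6 of the 32, all higher, against 6.57% of all genes. Hspa5 was not among them, since 4 of the WD females, at 14938, 13052, 13194 and 15132, lay within the CD range of 12825 to 16674 and only replicate 3, at 21821, above it. Trib3 had the smallest p of the genes with lower log2 means (log2 difference -0.79, unadjusted p 0.17).

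Erythroid messages were higher alongside these chaperones. All 7 erythroid genes had higher log2 means in WD females (median 0.54), and their sum had a median of 991975 there against 500417 in CD females. With the erythroid score as a covariate the log2 difference of Creld2 was 0.42, that of Hsp90b1 0.28 and that of Manf 0.22. Each was well under its size without the covariate. In this comparison all listed lung epithelium genes had lower log2 means, from -0.6 (Sftpd) to -1.85 (Sftpc). All listed mesothelium genes did too, from -0.26 (Wt1) to -1.15 (Msln). Of the CD females kept, replicate 5, with the largest lung sum, was lowest for Hsp90b1 (10906) and Calr (12093). It was not lowest for Creld2, P4hb or Pdia6. The part of these cell types in the chaperone values was not tested.

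Between WDF and CDF females, at the high dose, 0 of the 32 genes were below an unadjusted p of 0.05, against 8.14% of all genes, and 0 had separate ranges against 0.735%. The smallest p was that of the degradation gene Derl2 (log2 difference -0.40, unadjusted p 0.057). CDF females replicate 4 stood out in it, at 3665 against 1649, 1790 and 1652. All 4 sensor genes had higher log2 means (median 0.35), Atf6 by 0.59 (unadjusted p 0.0771, limma adjusted p 0.532), and all 6 ATF4 arm genes lower log2 means (median -0.30). Both values rested on CDF females replicate 4: without it Atf6 was at 0.13 and Derl2 at -0.12, and Derl2 was at 0.11 with all 40 libraries.

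High against ordinary folic acid on the control diet gave 1 gene below an unadjusted p of 0.05 in females, Calr, against 7.78% of all genes. Its CDF values of 14835, 15164, 17433 and 22160 all lay above the CD values (log2 difference 0.37, SE 0.17, unadjusted p 0.0333, limma adjusted p 0.507). Calr was the only gene of the 32 with separate ranges, against 2.75% of all genes. The difference was 0.20 when the CD and CDF libraries with the most lung message were left out as well. Atf6 had the smallest p among lower log2 means (-0.43, unadjusted p 0.213), but the sign turned with the erythroid covariate (0.08) and without CDF females replicate 4 (0.03). On the western diet 1 gene, Pdia6, was below the threshold in females against 1.44% of all genes (log2 difference -0.32, SE 0.15, unadjusted p 0.0405, limma adjusted p 0.948), and 0 had separate ranges against 0.306%. Atf6 had the smallest p among higher log2 means there (0.41, unadjusted p 0.183).

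**Figure D2:**
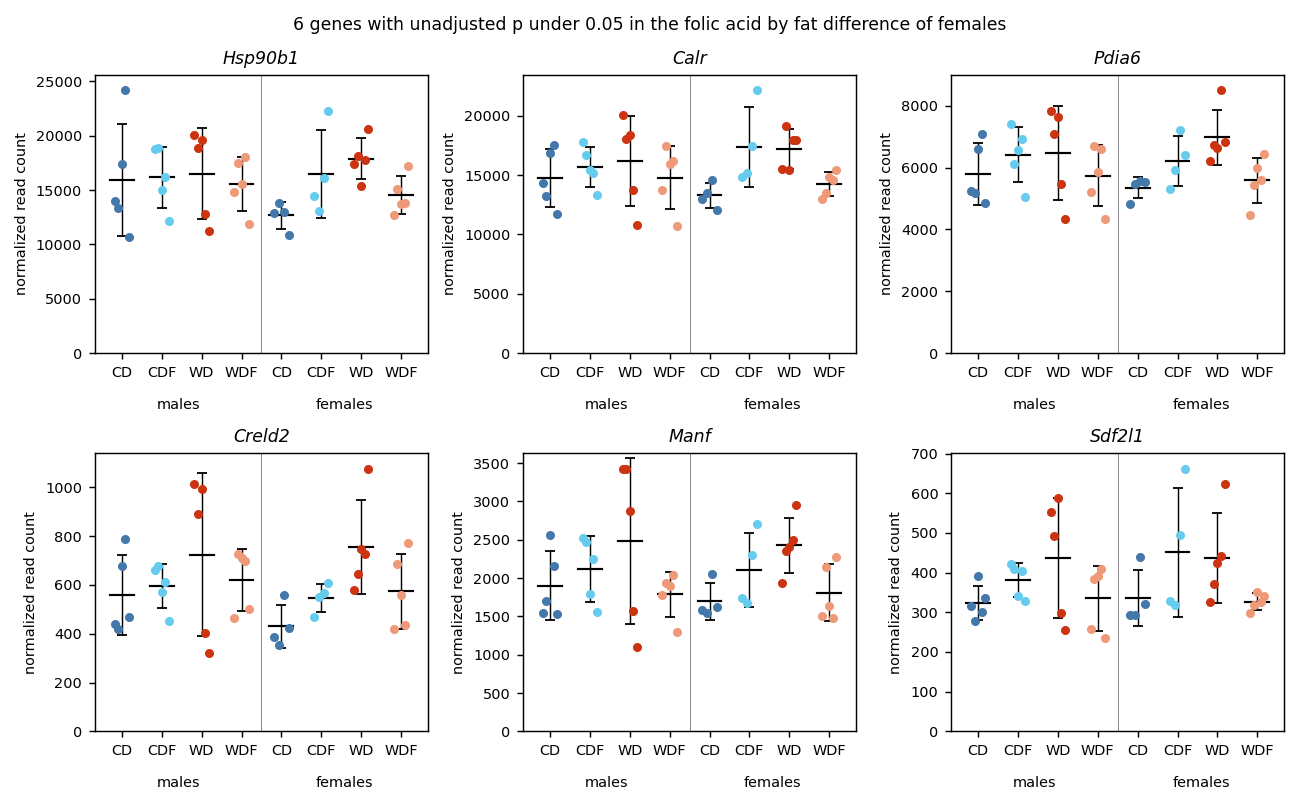
Normalized read counts (y axis, from 0) of Hsp90b1, Calr, Pdia6, Creld2, Manf and Sdf2l1 in the 8 groups (x axis), with 1 point per library and bars for the group mean and SD. These genes were picked for an unadjusted limma p below 0.05 in the difference of fat effects in females, so their pattern there is not independent. In females CD is the lowest of the 4 means of Hsp90b1, Calr, Pdia6, Creld2 and Manf, and the means of Hsp90b1 are 12666 in CD and 17863 in WD.

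The difference between the 2 fat effects in females was negative for 13 of 15 chaperones (median -0.31, all genes 0.04). Calr had the smallest p (log2 difference -0.64, 95% interval -1.10 to -0.18, SE 0.23, unadjusted p 0.00754, limma adjusted p 0.367). Hsp90b1 (-0.66), Pdia6 (-0.53), Sdf2l1 (-0.76), Manf (-0.73) and Creld2 (-0.77) were the other genes below an unadjusted p of 0.05, 6 of the 32 against 12.9% of all genes. With erythroid genes as a covariate the value of Calr was -0.44, and all but 2 of the 7 erythroid genes were negative in the same difference (median -0.59). The sensor genes took the other sign in 3 of 4 cases (median 0.43), with Atf6 at 0.84 (unadjusted p 0.0729). Atf6 was at 0.21 with the erythroid covariate and at 0.39 without CDF females replicate 4.

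No gene of the 32 was below an unadjusted p of 0.05 in the tests of whether the sexes differed in an effect. For the effect of folic acid on the western diet, the share of all genes below it was 7.52%, and Hspa5 had the smallest p (male less female log2 difference -0.51, unadjusted p 0.0872, limma adjusted p 0.58). Ppp1r15a had the smallest p among positive values of that difference, at 0.79. For the effect of fat at the ordinary dose the share was 5.87%, and Ppp1r15a had the smallest p (-1.19, unadjusted p 0.0756, limma adjusted p 0.634; -0.47 with the erythroid covariate), with Xbp1 first among positive values at 0.32. Whether the difference of fat effects itself differed between the sexes was not tested. The chaperone sets of males and of females described above were therefore not shown to differ between the sexes.

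Over both sexes and both doses, 6 of the 32 genes were below an unadjusted p of 0.05 for the effect of fat, against 7.5% of all genes. Creld2 (0.29, unadjusted p 0.0336, limma adjusted p 0.609) and Dnajb11 (0.15) had higher log2 means on the western diets. Derl2 (log2 difference -0.25, unadjusted p 0.017, limma adjusted p 0.531), Chac1 (-0.58), Herpud1 (-0.17) and Trib3 (-0.58) had lower ones. With the erythroid score as a covariate Derl2 passed (-0.37, limma adjusted p 0.0142), but it was -0.14 with library weights (limma adjusted p 0.206). With library weights Creld2 passed (0.44, limma adjusted p 0.0259), but with the erythroid covariate it was 0.14 (limma adjusted p 0.434). Each was the only 1 of the 32 to pass, among 102 of 15377 genes called with the covariate and 486 with library weights. The value of Derl2 was -0.03 with all 40 libraries and -0.18 without CDF females replicate 4. For the effect of folic acid over both sexes and diets 0 of the 32 were below the threshold against 2.33% of all genes. Asns (-0.10, unadjusted p 0.227) and Canx, the membrane-bound lectin chaperone (0.08, unadjusted p 0.269, limma adjusted p 1.0), had the smallest p in each direction. Between sexes 0 of the 32 were below it against 3.1% of all genes, with P4hb higher in females by 0.13 (unadjusted p 0.0979) and Ern1 lower (-0.26, unadjusted p 0.102). Both signs turned with the replicate number as a block, to -0.14 for P4hb and 0.16 for Ern1, and P4hb was at -0.04 with all 40 libraries.

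**Figure D3:**
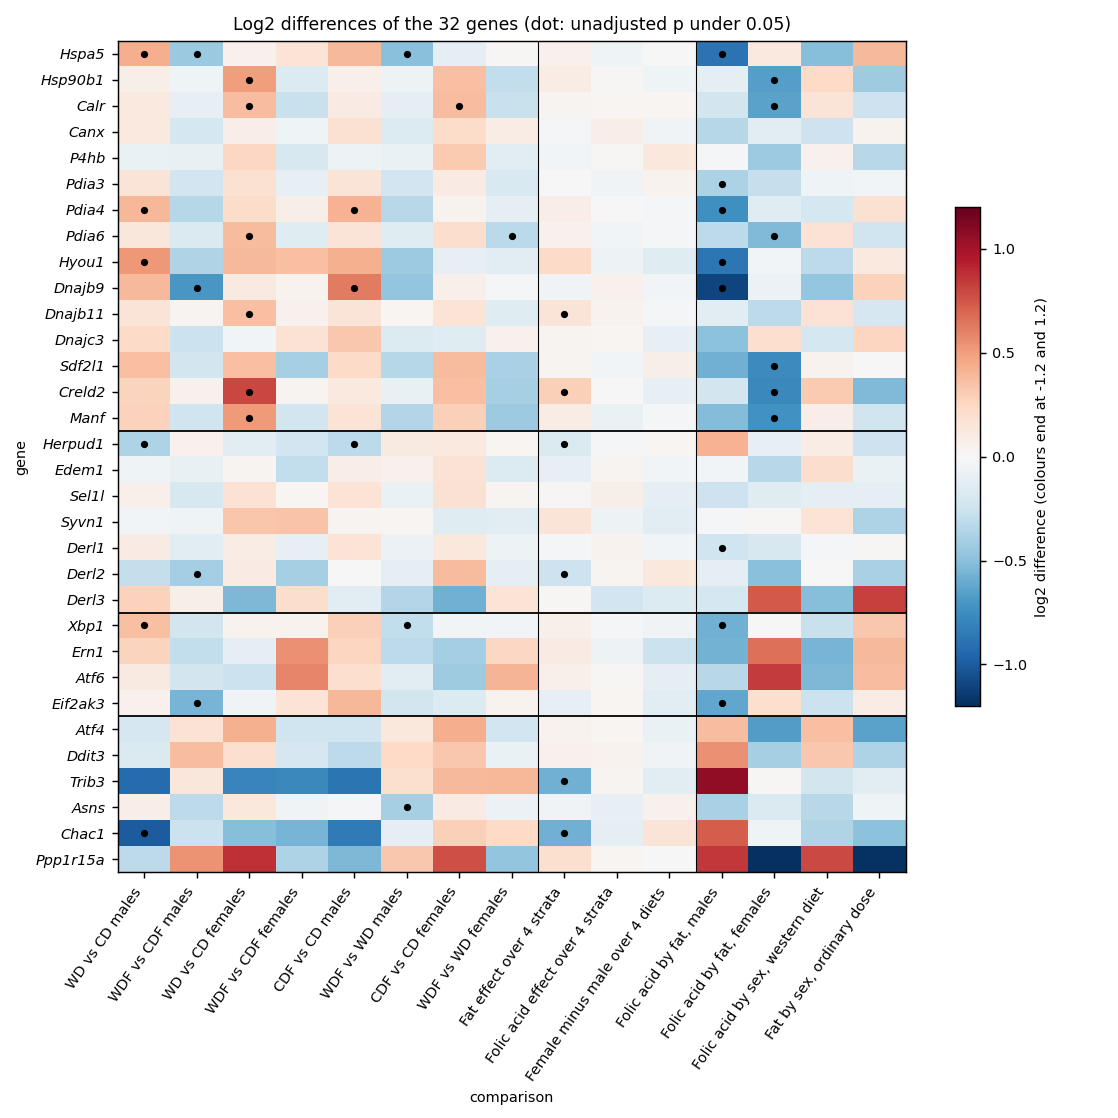
Log2 differences (colour, red higher and blue lower) of the 32 genes (y axis, by branch) in the 15 comparisons (x axis); a dot marks an unadjusted p under 0.05, and no gene passed the adjusted threshold of 0.05. The column of folic acid by fat in males is blue for all 15 chaperones, and the largest negative value there is that of Dnajb9, at -1.10.

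Several genes of the ATF4 arm spread widely between fetuses of a group. Ppp1r15a, which removes the eIF2α phosphate, ran in CD males through 2275, 3660, 4788, 11256 and 2476 and in WD males through 5572, 7322, 3815, 1840 and 1321. Each group spanned several fold, and the ranges overlapped widely. Ddit3 (CHOP) lay between 105 and 331 in all 38 libraries and Atf4 between 2087 and 7978, the highest value of both being that of CD males replicate 4. Chac1 ran from 3.46 to 40.3, close to the filter on low values, and its mean was highest in CD males (19.7 ± 12.4, SD, n = 5) and lowest in WD males (8.36 ± 2.48, SD, n = 5). Of the 7 degradation genes, Edem1 and Sel1l, which hand over misfolded glycoproteins, and Syvn1, the ubiquitin ligase, had ratios of highest to lowest group mean of 1.27, 1.29 and 1.32.

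**Figure D4:**
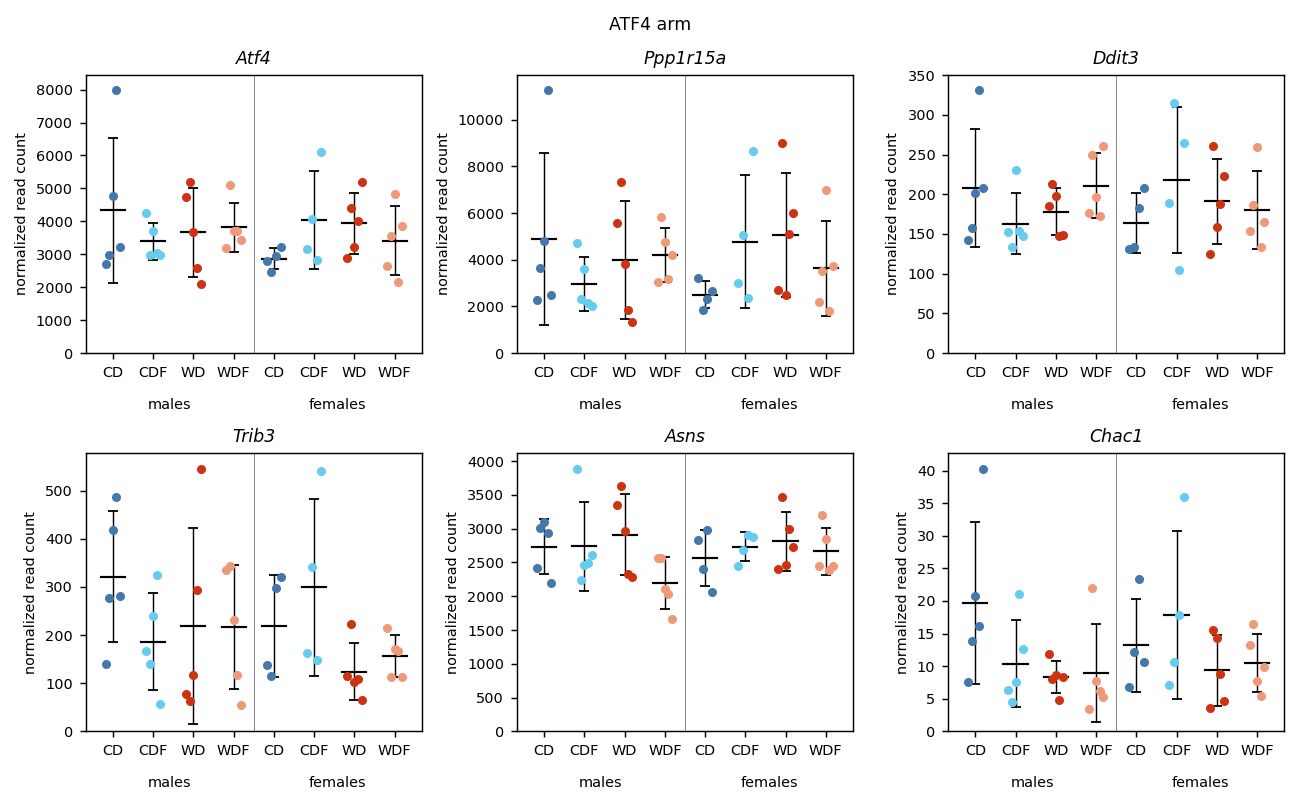
Normalized read counts (y axis, from 0) of the 6 ATF4 arm genes in the 8 groups (x axis), with 1 point per library and bars for the group mean and SD. Points of a group spread widely in Ppp1r15a, from 2275 to 11256 in CD males, and less in Asns, whose WDF males have the lowest mean at 2190.

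In the authors' deposited tables of high against ordinary folic acid, none of the 32 genes had an adjusted p below 0.05. Of all genes 0.0216% did in control diet females, 0.0437% in control diet males, 0% in western diet females and 1.48% in western diet males. At an unadjusted p below 0.05 the authors' deposited table held 2 of the 32 in control diet females (Calr and Ppp1r15a) against 5.74% of genes, and 4 in control diet males against 4.35%. In western diet females it held 6, all chaperones with Calr first (p 0.00917, adjusted p 0.964), against 2.48%. The fold changes of these tables were not used beyond the western diet males. On the log2 scale 99.6% of rows in the control male table and 99.9% in the western female table were within 0.001 of 0. The share was 17.1% in the control female table, where Calr stood at only 0.0286.

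Within groups, fetuses with more Hspa5 had more of some of the other 31 genes, and the 6 of highest r are named here. With group means removed, Pearson's r over the 38 libraries was 0.87 for Hspa5 with Dnajb9, 0.86 with Pdia4, 0.83 with Xbp1, 0.82 with Hyou1, 0.73 with Dnajc3, the BiP co-chaperone that inhibits PERK, and 0.67 with Canx. The adjusted permutation p was 0.000203 for each of these 6, from a p of 1e-05, the smallest that 100000 resamples can give. In the same order Spearman's rho was 0.89, 0.90, 0.80, 0.88, 0.74 and 0.65, with a permutation p of at most 2e-05. Without the 2 libraries farthest from the median, WDF females replicate 3 and CD males replicate 4, r was 0.80 with Dnajb9, 0.82 with Pdia4, 0.68 with Xbp1 and 0.81 with Hyou1. Within the 20 males it was 0.80, 0.88, 0.77 and 0.82 for these 4, and within the 18 females 0.94, 0.84, 0.90 and 0.83. Other abundant chaperones had r near 0 with Hspa5 at -0.03 for Hsp90b1, 0.02 for Calr and 0.00 for Pdia6. Ddit3 (r -0.65, rho -0.60, adjusted permutation p 0.000203), Ppp1r15a (-0.60, -0.56, 0.00041) and Atf4 (-0.51, -0.45, 0.00327) ran against it. Without the 2 libraries r with Atf4 was -0.26 (adjusted permutation p 0.218) and no longer past the threshold. With the erythroid score regressed out none of the 3 was past it: r was -0.40 for Ddit3 (adjusted permutation p 0.0618), -0.23 for Ppp1r15a (0.324) and -0.03 for Atf4 (0.931). The 6 positive pairs above were past it, with r between 0.58 for Dnajc3 and 0.84 for Dnajb9.

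Such correlations were common among all genes. Of the 31 other members 13 were past an adjusted p of 0.05 with Hspa5, 10 positive and 3 negative. This is a smaller share than the 53.5% of all genes tested. An r above 0.5 was found for 9 members (29%) against 17.4% of all genes. The 95th percentile of r over all genes was 0.67, which is the value of Canx. The genes most like Hspa5 among all tested, by r over the 38 libraries, were Hspa13 (0.91), Jpt2 (0.89), Ssr1 (0.89), Nus1 (0.88) and then Dnajb9. With Asns, 14 of the other members were past the threshold against 34.1% of all genes, and 7 of 31 had r above 0.5 (22.6%) against 8.88%. The highest r were those with Calr (0.64, adjusted permutation p 0.000646), Ppp1r15a (0.63, 0.0015) and Manf (0.62, 0.00111), with rho of 0.62, 0.65 and 0.62. Without CDF males replicate 1 and WD males replicate 2, the 2 libraries farthest from the median of Asns, they were 0.63, 0.57 and 0.58. With the erythroid score regressed out they were 0.49, 0.38 and 0.47 (adjusted permutation p 0.0605, 0.187 and 0.0758) and no longer past the threshold. Within males these 3 were 0.69, 0.68 and 0.69 and within females 0.51, 0.54 and 0.43, where no member was past the threshold with Asns. Values for Trib3 (0.02) and Chac1 (0.24), whose promoters hold the CARE letters as that of Asns does, were low. The genes most like Asns were Nasp (0.87), Pa2g4 (0.84) and Stip1 (0.83). Over all 61 pairs of a member with Hspa5 or Asns, 27 were past the threshold.

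A single axis held much of the variation between fetuses. The first principal component of all tested genes, group means removed, took 29.7% of the residual variance, and its r was -0.86 with the log2 library total, -0.83 with the erythroid score, -0.72 with the neutrophil score and 0.57 with the hepatocyte score. Members lay at both ends: Atf6 (0.94), Dnajc3 (0.91), Ern1 (0.85) and Eif2ak3 (0.79) at the positive end, and Atf4 (-0.91), Ppp1r15a (-0.90), P4hb (-0.77) and Ddit3 (-0.76) at the negative end. Hspa5 itself was at 0.68. Exon lengths, in the same order, were 9.23, 5.14, 8.17 and 6.03 kb at the positive end. At the negative end they were 2.36, 2.94, 2.86 and 1.71 kb. Length did not order all members, since Derl2 (8.05 kb, r -0.73) and Edem1 (6.45 kb, r -0.51) were long and negative. The part of transcript length or RNA quality in this axis was not tested. With that component also removed, an alternative chosen after the data were seen, 14 of 31 members had r above 0.5 with Hspa5 (45.2%) against 3.08% of all genes. Of the 14 other chaperones 12 were among them, with a median r of 0.68 and none below 0.37. Xbp1 was at 0.68, down from 0.83, Dnajc3 at 0.37, down from 0.73, and Atf6 at -0.32, and the ATF4 arm had a median of 0.16. With Asns 4 of 31 members (12.9%) had r above 0.5 against 4.44% of all genes.

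Between chaperones themselves the median r over 105 pairs was 0.49 (-0.62 to 0.90) before the component was removed and 0.63 (0.12 to 0.93) after it. Between the 4 sensor genes it was 0.69 before and 0.06 after, and between sensors and ATF4 arm -0.46 before and 0.12 after. Herpud1 with Trib3 had the highest r of the 42 pairs between degradation genes and the ATF4 arm, 0.81 before and 0.82 after, where the median of the 42 was 0.17 before.

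**Figure D5:**
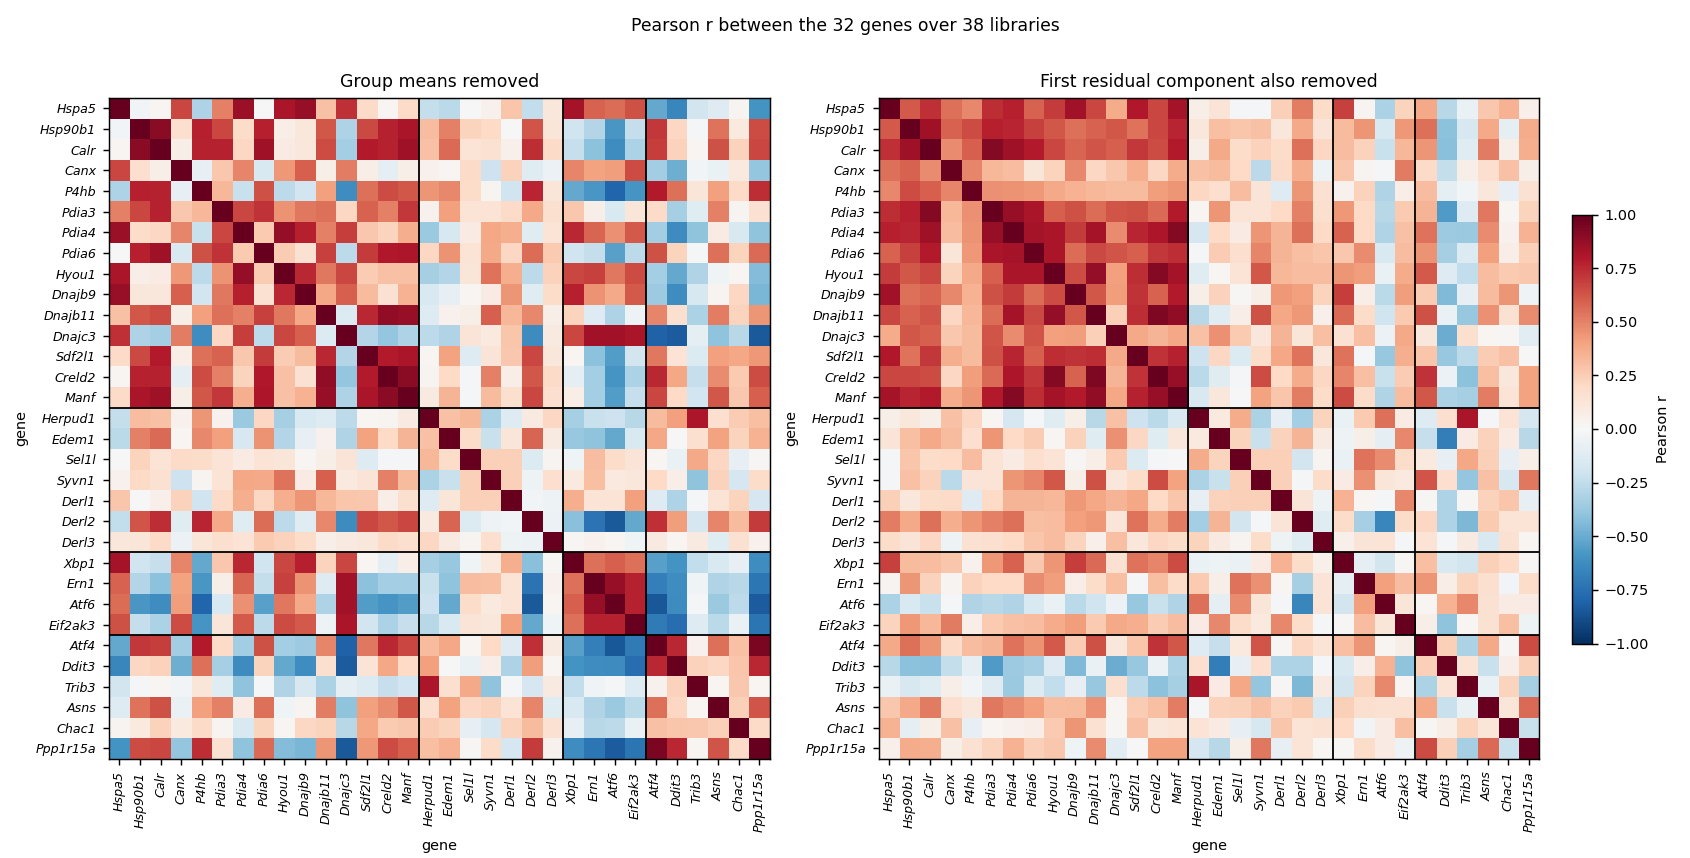
Pearson r (colour) between each pair of the 32 genes over 38 libraries, genes on both axes in order of branch with lines between branches, with group means removed (left) and with the first residual component removed as well (right). The chaperone block is mixed on the left, from -0.62 to 0.90, and positive throughout on the right, from 0.12 to 0.93.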

How the data were processed

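RNA of 40 fetal livers was sequenced as paired reads of 43 nt from directional polyadenylated libraries, as the labels' protocols state. Per the submitters' processing notes, Trimmomatic 0.39, STAR 2.7.3a, Salmon 1.3.0 and DESeq2 1.24 were used with the mouse build mm10; the counting step is not given in the sources used here. Gene values that the authors deposited are a signal: read counts already divided by size factors, as the values show (median-ratio factors recomputed from the table lie at 1.01 in every library), so a count model planned for whole counts was replaced by limma. Log2 fold changes and p-values for folic acid come in 4 further tables, which the authors deposited.

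The 32 genes and all lists were chosen with earlier results of these data known. A gene was tested if 5 or more libraries had a value of 10 or above, which left 15377. Values were taken as log2(value + 1), which understates differences of low genes, and 8 group means were fitted over 38 libraries by limma 3.58.1 (R 4.3.3) with trend and robust moderation. All tests are two-sided, and adjusted p-values are Benjamini-Hochberg over all genes tested. A difference of fat effects is (WDF less CDF) less (WD less CD). Named with full values in each comparison are the genes of smallest p in each direction, with other members below an unadjusted p of 0.05 as examples. Correlations used group-centred values with permutation p from 100000 resamples, adjusted over all genes tested with each of Hspa5 and Asns. The plan had adjusted over 61 pairs. Values were shuffled across groups without allowance for the 8 means removed, so these p-values and the counts past the threshold may be too favourable. A cell type score is the mean log2 value of its markers. Depth in reads is not known from this table, so precision rests on the spread between libraries, whose values sum to between 15 and 27.8 (in units of 1000000) in the 38 and to 8.97 at the lowest of all 40. Alternatives were other scalings, filters and pseudocounts, other sets of libraries, library weights, a replicate block and marker scores as covariates. The scripts were tested on simulated data.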

Additional observations from a re-analysis of the deposited data

Results flagged for a closer look

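Among 256 combinations of a gene and a group, 15, in 12 genes, had a library whose gap to its nearest neighbour was more of the group's range than the 95% limit of Dixon's test for that group size; chance alone gives about 5% of such groups. WDF females replicate 3 was the low library for Hspa5 (8966 against 16349 to 19100, gap 0.794 of the range), Xbp1 (1728 against 2544 to 2807, gap 0.797) and Canx (4188 against 6346 to 7386, gap 0.733). WD females replicate 3 was the high library for Hspa5 (21821 against 13052 to 15132, gap 0.712). CD males replicate 4 was high for P4hb (32683 against 18442 to 21380, gap 0.742) and low for Atf6 (326 against 547 to 650, gap 0.748). CD females replicate 5, which carried the largest lung sum of the 38, was low for Canx (4128, gap 0.833) and Eif2ak3 (169, gap 0.854). CD females replicate 1 was low for P4hb (18545 against 20418 to 20492, gap 0.964) and Pdia6 (4834, gap 0.876). CDF females replicate 4 was high for Derl2 (3665, gap 0.898). Single gaps were those of Asns in CDF males replicate 1 (3889, gap 0.720), Ddit3 in CDF males replicate 3 (230, gap 0.735), Edem1 in WDF males replicate 5 (907, gap 0.711) and Derl1 in WDF females replicate 5 (2087, gap 0.740). What sets these libraries apart was not tested.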

How the results depend on the processing

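With no member called in any of 15 comparisons, 185 of 190 counts under other settings were also 0. Of the other 5, library weights called 1 member in WD against CD males, 3 in WDF against WD males, 1 for fat over both sexes and 3 in the difference of fat effects in males, and the erythroid covariate called 1 for fat. Leaving out each library in turn called 0 to 0 members in all 267 fits, and the replicate block called 0 in each comparison. The labels tie the replicate numbers to no shared source, and same-numbered pairs all correlated above 0.1 in 0 of 8 comparisons between groups (lowest r -0.54, highest 0.27). The 27 correlations past the threshold became 13 in females alone and 13 with the erythroid score regressed out. Of 1838 values of single genes under other settings 7 reversed, all from values that had not passed: with all 40 libraries Derl2 in WDF against CDF females (0.11), Herpud1 for fat (0.04) and P4hb for sex (-0.04); with the replicate block P4hb (-0.14) and Ern1 (0.16) for sex; and Atf6 in CDF against CD females with the erythroid covariate (0.08) and with 1 library left out (-0.67 to 0.03, the latter without CDF females replicate 4). The cause was not tested.

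Counts over all genes were less stable. For fat, 7 genes were called, against 3 with 40 libraries, 11 with 36, 11 with a pseudocount of 5, 2 with the replicate block, 22 at an adjusted p of 0.1, 102 with the erythroid covariate, 486 with library weights and 3 to 53 with 1 library left out (53 without CDF males replicate 2). From 0, library weights called 145 genes in WD against CD males, 241 in WDF against CDF males, 621 in WDF against WD males, 397 in the difference of fat effects in males and 579 in that of folic acid between sexes. The erythroid covariate called 1 in WD against CD males, 21 in WDF against WD males and 157 in the difference of fat effects in males. Leaving out CDF males replicate 2 called 8 in WDF against CDF males. Differences within the spread of 4 or 5 fetuses per group were not detectable here.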
